A study of Mus musculus with 2 samples.

Results

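EP300 peaks lay at the promoter of its own gene and at or near 3 of 8 genes for partner co-activators in newborn mouse stomach. That count is near the share of all protein-coding genes with a peak by the same rule (36.7%). The set comprised 9 genes taken by symbol from GENCODE M21, out of 21911 protein-coding genes. They were Ep300, Crebbp, Kat2a, Kat2b, Med1, Ncoa1, Ncoa2, Ncoa3 and Cited2. A gene was given every summit of the optimal peak list inside its body or within 50 kb of its start. The optimal list is the larger of 2 sets thresholded by IDR, the irreproducible discovery rate, which scores how well peak ranks repeat. The material was whole stomach of B6NCrl mice at postnatal day 0, with chromatin immunoprecipitated by an antibody labelled EP300. The 2 libraries, labelled biological replicates 1 and 2, form 1 group and share a biosample label and a donor label, so the spread between them may be technical. With 1 group there is no contrast of conditions, and the comparisons lie between genes and between libraries. In whole stomach, EP300 in few cells and little EP300 in many cells cannot be told apart.

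EP300 (p300) is a lysine acetyltransferase without sequence-specific DNA binding of its own. Transcription factors bring it to enhancers and promoters, where it acetylates histones, including histone H3 at lysine residues of active elements. CREBBP (CBP) is its close paralogue. KAT2A and KAT2B (GCN5 and PCAF) are the acetyltransferases of the SAGA and ATAC complexes. MED1 is the Mediator subunit that contacts nuclear receptors, NCOA1, NCOA2 and NCOA3 are the p160 co-activators that link those receptors to EP300 and CREBBP, and CITED2 binds a domain of EP300 and CREBBP that HIF1A also uses.

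Sequences under selected summits in the windows of these genes are given first, from promoter and from distal positions. Each runs 5′ to 3′ on the strand of the gene, covers 100 bp on either side of the summit, and comes from the RefSeq copy of GRCm38, the assembly also known as mm10. Exon bases of protein-coding genes were cut off, while those of other transcripts were not. For Med1 the upstream summit stands in for the stronger one, which lies on an exon. Capitals mark letters of the motifs searched, which are spelled out further on, and of the palindrome TCGCGA, which was added after the sequences were read.
Ep300, upstream summit, chr15:81584927-81585127, plus strand: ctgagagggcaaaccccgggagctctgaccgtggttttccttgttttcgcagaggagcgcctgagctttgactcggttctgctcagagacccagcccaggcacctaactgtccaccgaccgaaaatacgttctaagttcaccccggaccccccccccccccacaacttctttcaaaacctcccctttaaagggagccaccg
Ep300, summit near the start, chr15:81585177-81585350, plus strand: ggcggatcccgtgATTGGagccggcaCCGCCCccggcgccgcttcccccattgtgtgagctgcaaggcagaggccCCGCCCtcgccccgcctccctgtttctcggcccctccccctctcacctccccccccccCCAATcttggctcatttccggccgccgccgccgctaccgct
Med1, upstream summit, chr11:98193360-98193560, minus strand: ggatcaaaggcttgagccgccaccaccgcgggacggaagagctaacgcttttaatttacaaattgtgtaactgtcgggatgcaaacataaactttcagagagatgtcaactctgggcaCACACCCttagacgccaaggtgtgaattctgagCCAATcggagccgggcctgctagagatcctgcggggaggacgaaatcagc
Med1 window, summit at the Cdk12 promoter, chr11:98202598-98202798, minus strand: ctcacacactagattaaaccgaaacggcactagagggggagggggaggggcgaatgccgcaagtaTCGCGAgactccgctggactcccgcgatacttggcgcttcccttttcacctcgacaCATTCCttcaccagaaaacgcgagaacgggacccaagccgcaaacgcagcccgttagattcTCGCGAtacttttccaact
Ncoa3, upstream summit, chr2:165983019-165983219, plus strand: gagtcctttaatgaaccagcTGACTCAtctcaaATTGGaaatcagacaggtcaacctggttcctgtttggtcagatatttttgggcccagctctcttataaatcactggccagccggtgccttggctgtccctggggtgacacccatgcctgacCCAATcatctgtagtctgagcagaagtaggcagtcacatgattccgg
Cited2, promoter summit, chr10:17722359-17722559, plus strand: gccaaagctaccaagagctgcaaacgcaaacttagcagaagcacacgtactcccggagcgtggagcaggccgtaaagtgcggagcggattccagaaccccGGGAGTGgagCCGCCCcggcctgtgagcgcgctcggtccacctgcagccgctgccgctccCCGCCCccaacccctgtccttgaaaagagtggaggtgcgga
Cited2, downstream summit, chr10:17728506-17728706, plus strand: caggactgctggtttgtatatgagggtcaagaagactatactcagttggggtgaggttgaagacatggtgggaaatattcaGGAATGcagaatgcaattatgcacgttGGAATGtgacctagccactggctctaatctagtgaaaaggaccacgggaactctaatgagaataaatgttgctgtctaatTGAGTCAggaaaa

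Of the 9 genes, 4 had an optimal EP300 summit in the body or within 50 kb of the start, against 36.7% of all protein-coding genes (8032 of 21911). That share (44.4%) is near the background and says little about the set as a whole. A promoter summit, one no further than 1 kb from a coding transcript start of the gene, was present at 3 of the 9, namely Ep300, Med1 and Cited2, against 11.1% of all genes. In each of the 4 genes with a summit, at least 1 summit had its nearest protein-coding start in the gene itself, against 17.6% of all genes. No test was run on these counts, since the genes were chosen with results of these data known and number only 9. The median gene of the set and the median of all genes both had 0 summits.

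The 4 genes held 13 summits, in 9 runs of overlapping peaks. Their number was 2 for Ep300, 4 for Med1, 3 for Ncoa3 and 4 for Cited2. Of these 13 peaks, 6 lay at the promoter of the gene they were given to and 11 were nearest to its start. Signal is the peak strength written by the authors' caller, the IDR lists carry the pooled values, and each library has its own scale. The median signal of the 13 peaks was 29.6, within a range from 11.5 to 506, against 30.2 for all optimal peaks (quartiles 23.7 and 39.7, n = 7733). In 12 of the 13 intervals both libraries had a summit inside, against 88.8% of all optimal peaks. The library lists reach down to signals of 4.74 in replicate 1 and 4.54 in replicate 2, so such a summit can be weak. At Cited2, the exonic peak had only 4.67 in replicate 2, and the second downstream peak only 5.06 in replicate 1. Overlapping intervals can hold the same library summit, as those at Ep300 do for replicate 2. The conservative list, the smaller IDR set, is not nested in the optimal one. It held 9 of the 13 peaks with the same interval and summit, against 61.3% of all optimal peaks.

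**Figure D1:**
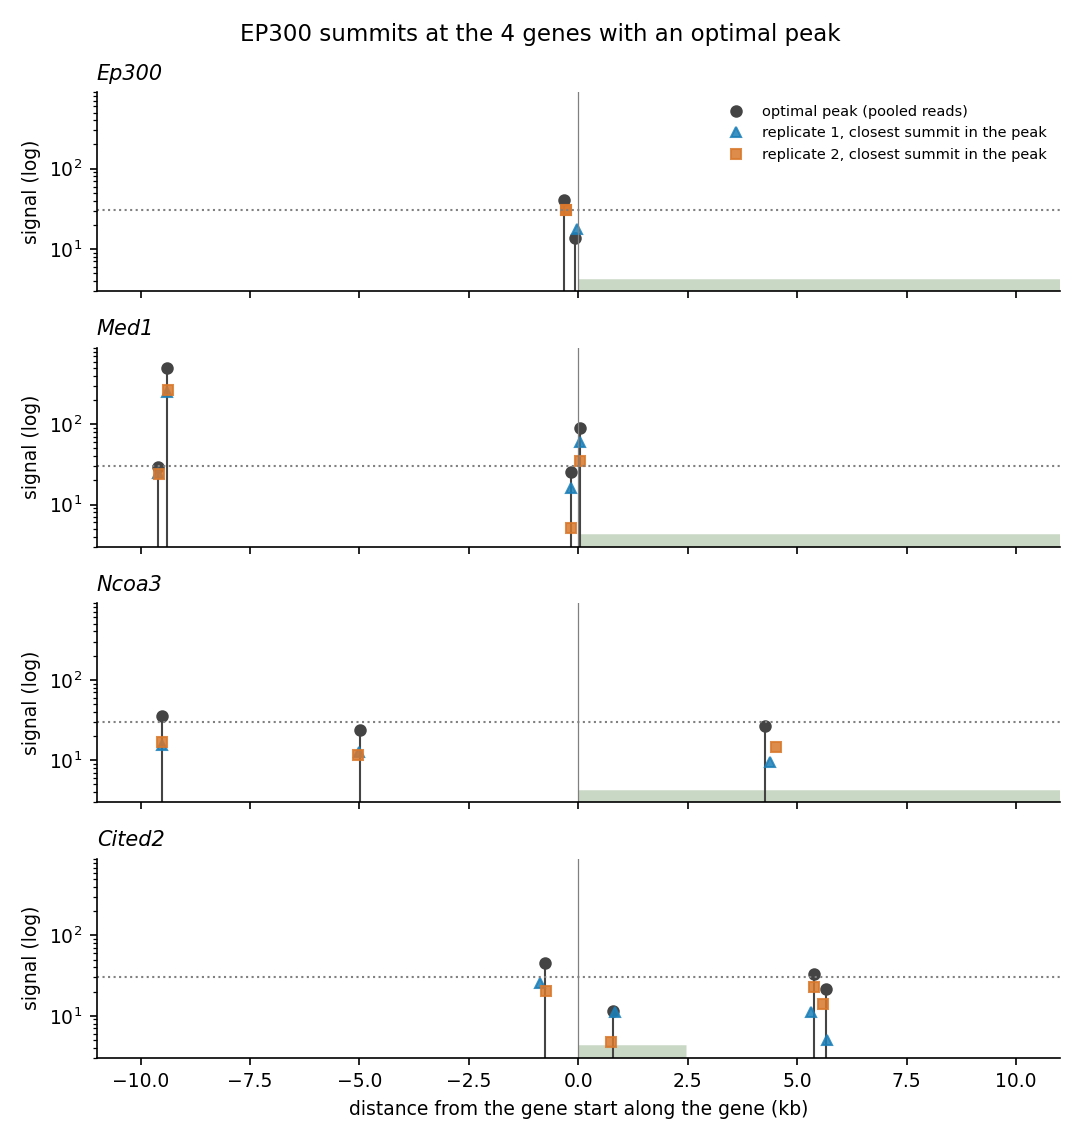
EP300 summits at Ep300, Med1, Ncoa3 and Cited2 by distance from the gene start (x axis, kb, positive into the gene) and signal (y axis, log scale). Circles with stems are optimal peaks, triangles and squares the closest summits of replicates 1 and 2, the green bar is the gene body and the dotted line the median optimal peak (30.2), which applies to the circles alone; Ncoa3 has no summit within 1 kb of its start.

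Ep300, the gene of the immunoprecipitated protein, carried EP300 at its own promoter. The gene lies on mm10 chromosome 15 (81585351 to 81652077, plus strand, ENSMUSG00000055024.12). Its stronger peak (81584747 to 81585306) had a summit 324 bp upstream of the start and a signal of 41.0, rank 1754 of the optimal list. An overlapping peak (81584997 to 81585556) had its summit 74 bp upstream and a signal of 13.8. Both summits lay outside protein-coding exons and both peaks were in the conservative list. The stronger summit stood 1 bp from the annotated start of 1110025M09Rik, an unclassified transcript model on the other strand.

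The libraries placed the Ep300 peak at different points. Replicate 2 had a peak of signal 30.4 (rank 697 of 300000) with its summit 289 bp upstream. Replicate 1 had a peak of signal 18 (rank 3897) with its summit 26 bp upstream, and no summit inside the interval of the stronger optimal peak. Each library thus had a promoter peak, and the stronger pooled summit was nearer to that of replicate 2. Away from the promoter the libraries had their next peaks at different places, 1110 bp into the gene in replicate 1 (13.7) and 52294 bp into it in replicate 2 (8.17). Of all protein-coding genes, 6.21% had a summit nearest to their own start that was at least as strong as that of Ep300.

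Crebbp, the paralogue of Ep300, had no optimal summit. Its window of 182670 bp (gene at chromosome 16, 4081328 to 4213997, minus strand) held 28 peaks of the pooled list, which lists peaks down to a signal of 7.67. The strongest of them reached 13.8 (rank 39289) on a UTR exon at the far end of the gene, nearest to the start of Trap1. The strongest peak of replicate 1 was 10.9, at 2068 bp upstream of the start, and that of replicate 2 was 9.82, inside the gene at 105477 bp from the start. These are different places, and no list held a peak within 1 kb of the start of the Crebbp gene record. At the starts of Ep300 and Crebbp the lists gave 41.0 against no listed peak in the pooled list, 18 against none in the first library and 30.4 against none in the second. Having no listed peak there is what most genes show: 40.9% of all genes had one in the pooled list, 44.6% in replicate 1 and 39.7% in replicate 2.

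Kat2a and Kat2b had no optimal summit either. Kat2a (chromosome 11, 100704746 to 100712465) is short and stands among 5 other coding genes that start within 50 kb. The strongest pooled peak in its window, with a signal of 21.7 (rank 10142), lay in an intron of Rab5c, a gene for an endosomal GTPase, 274 bp from a Rab5c start and 25437 bp upstream of Kat2a. Replicate 1 gave 20.2 there (rank 2772), but replicate 2 only 6.94. No list held a peak within 1 kb of the start of the Kat2a gene record. Kat2b (chromosome 17, 53566861 to 53672720) had a pooled peak of 14.7 (rank 30986) 62 bp upstream of its start, where the replicates gave 4.88 and 5.09. Its strongest pooled peak, 18.8 (rank 14754), lay in an intron 3285 bp from the start, with 7.58 in replicate 2 and no summit of replicate 1. A second intronic peak at 20556 bp (16) was matched by 7.72 in replicate 1 and 12.9 in replicate 2. In neither library did the strongest peak in the Kat2b window (13.7 and 12.9) reach that of Ep300.

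Med1 had the strongest promoter peak of the 9 genes. The gene lies on chromosome 11 (98152154 to 98193293, minus strand), and its main peak (98192981 to 98193540) had its summit on a UTR exon, 32 bp inside the annotated gene. The signal was 89.3, rank 255 of the optimal list, with 60.8 in replicate 1 (rank 153) and 34.9 in replicate 2 (rank 489). The 3 summits lay within 1 bp of each other. A second summit 167 bp upstream had a signal of 25.4, with 16 and 5.10 in replicates 1 and 2, and was not in the conservative list. A summit nearest to the own start and at least as strong as that of Med1 was found at 1.12% of all protein-coding genes.

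The window of Med1 also holds the peak with the highest signal of the whole optimal list. It lay 9405 bp upstream of Med1 (98202416 to 98202909), but 361 bp from the start of Cdk12, the kinase gene next to Med1, and had 506 in the pooled list, with 251 and 268 in replicates 1 and 2. The list gives the same interval a second time with a summit 157 bp from the Cdk12 start and a signal of 29.6. Med1 and Cdk12 are transcribed away from each other. Given only to their nearest start, both summits leave Med1, which keeps its 2 promoter summits.

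Among the p160 co-activators, Ncoa3 alone had optimal summits, and none at its promoter. The gene lies on chromosome 2 (165992636 to 166073242, plus strand), with no other coding start within 50 kb. The strongest summit stood 9517 bp upstream of it (165982839 to 165983398) with a signal of 35.4. Replicate 1 gave 15.5 and replicate 2 gave 17.1 there, with summits within 1 bp. A summit 4986 bp upstream had 24.0, with 12.7 and 11.6 in replicates 1 and 2. The one inside the gene, in an intron 4265 bp from the start, had 26.8, with 9.47 and 14.8, and here the library summits stood 104 and 252 bp further into the gene. The upstream peaks were in the conservative list and the intronic peak was not. They flank the start of Platr29, a long non-coding RNA, at 2805 and 1726 bp from it.

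At the start of Ncoa3 the pooled list held only a peak of 10.7 (rank 100132), replicate 1 one of 8.24 and replicate 2 none within 1 kb. The distal summits of Ncoa3 were thus stronger than anything listed at its promoter in each of these 3 lists. A count of 3 or more summits nearest to the own start was found at 2.66% of all genes.

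Ncoa1 and Ncoa2 had no optimal summit although their windows were the longest of the set, 279821 and 284979 bp. The length of the searched window did not go with a higher share over all genes: 36.1% of the 1475 genes with a window over 200 kb had a summit. The strongest pooled peak in Ncoa1 (chromosome 12, 4247362 to 4477182), in an intron 144417 bp from the start, had 22.0 (rank 9849), with 11.2 in replicate 1 and 9.07 in replicate 2. In Ncoa2 (chromosome 1, 13139105 to 13374083) the strongest, in an intron 117082 bp from the start, had 20.2 (rank 12184), with 7.83 and 10.9. Both intronic peaks were found in each library, and their pooled signals lay below the lower quartile of the optimal list (23.7, pooled scale). The starts in the next values are those of the gene records. At the Ncoa1 start the pooled list held a peak of 11.6 and replicate 1 one of 10, and at the Ncoa2 start only replicate 1 held one, of 5.93. Inside the Ncoa1 gene record, 213617 bp from its start and 13 bp from the start of another coding transcript of Ncoa1, the pooled list held a peak of 16.4 (rank 21778), with 6.22 and 7.52 in replicates 1 and 2.

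Cited2 had the most summits nearest to its own start, on both sides of a short gene (chromosome 10, 17723218 to 17725674, plus strand) that has no coding neighbour within 50 kb. The strongest peak (17722179 to 17722738) stood 759 bp upstream with a signal of 45.9, and had 25.5 in replicate 1 and 20.6 in replicate 2. Downstream of the gene, an overlapping pair of peaks at 5388 and 5650 bp had 33.0 and 21.6. The first of this pair had 11 in replicate 1 and 22.8 in replicate 2, and the second 5.06 and 14.2 at the closest library summits. Both were weaker in replicate 1, while the promoter peak was not. A weak peak in the coding exon, 790 bp from the start, had 11.5, with 11.2 and 4.67. The promoter peak and the stronger downstream peak were in the conservative list.

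At Cited2, membership of the optimal list did not follow the pooled signal. A pooled peak of 26.1 with a summit 4 bp upstream of the start (rank 6327), was not in the optimal list, although replicate 1 gave 19.6 (rank 3036) there. The exonic peak was in that list at rank 77560 of the pooled reads. Replicate 2 gave 7.61 at the former and 4.67 at the latter. Of all protein-coding genes, 1.16% had at least as many summits nearest to their own start as Cited2.

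**Figure D2:**
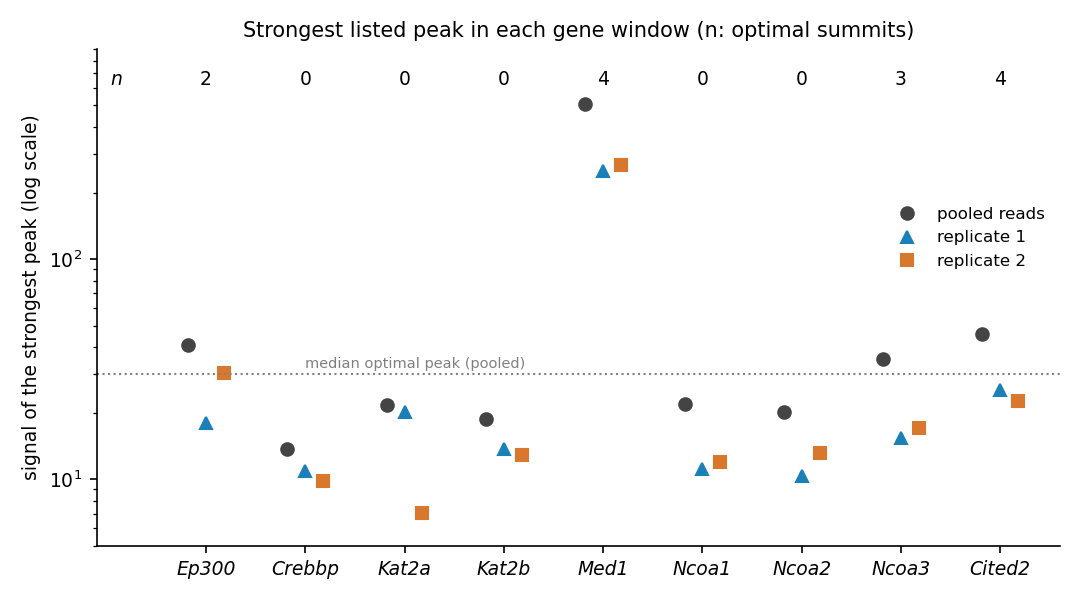
Signal (y axis, log scale) of the strongest listed peak in the window of each of the 9 genes, in the pooled reads and in each replicate, with the number of optimal summits above. Ep300, Med1, Ncoa3 and Cited2 exceed the median optimal peak (dotted, pooled scale) in the pooled reads, the other 5 genes lie between 13.8 and 22.0, and Kat2a has the largest ratio between the replicates (20.2 and 7.04).

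Across the 9 genes, the strongest pooled peak in the window was at least 35.4 where an optimal summit was called and at most 22.0 where none was. In replicate 2 the same groups lay at 17.1 or more and at 13.2 or less. In replicate 1 they overlapped, because 20.2 near Rab5c in the window of Kat2a exceeded the 15.5 of Ncoa3 and the 18 of Ep300. These ranges follow in part from the calling itself and are given as a description.

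The ratio of the libraries varied among the peaks of the 4 genes. Over all optimal peaks with a summit in both, the median log2 ratio of replicate 1 to replicate 2 was 0.02 (quartiles -0.47 and 0.53, n = 6865), taking the strongest summit of each library inside the interval. At the Ep300 peak near the start it was -0.75. The replicate 2 summit used there (30.4) lay 215 bp away, and 35 bp from the stronger Ep300 summit. The stronger Ep300 peak has no ratio, since replicate 1 has no summit inside it. The ratio was 0.80 at both Med1 promoter peaks and -0.09 at both peaks by Cdk12, which share their strongest library summits. At Ncoa3 it was -0.14 and 0.13 for the upstream peaks and -0.65 for the intronic peak. At Cited2 it was 0.31 upstream, 1.27 in the exon, and -1.05 and -2.17 downstream. The values 1.27 and -2.17 each rest on a library summit near the lower end of its list (4.67 in replicate 2 and 5.06 in replicate 1). Both downstream peaks took the same replicate 2 summit (22.8), which lay 264 bp from the second of them. The replicate 2 summit closest to that second peak had 14.2, against 5.06 in replicate 1. Values outside the quartiles of all peaks occurred in both directions, at Ep300, Med1, Ncoa3 and Cited2. By definition, as many of all peaks lie outside these quartiles as between them, so such values are common. With 1 value per library, no test of these differences was possible.

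GC content at the summits differed between promoter and distal positions. GC content within 100 bp was 58.2 and 71.1% at the Ep300 summits, 63.7 and 52.2% at the Med1 promoter and 65.2% at the Cited2 promoter. At the Ncoa3 summits it was 50.2, 48.3 and 44.8%, and at the downstream Cited2 summits 42.8 and 43.3%. Over all optimal summits the median was 59.7% within 1 kb of a coding start and 47.3% further away. The ratio of observed to expected CpG was 0.63 to 0.98 at the promoter summits of Ep300, Med1 and Cited2, against 0.10 to 0.43 at the Ncoa3 summits and the downstream Cited2 summits. At the pair of summits by Cdk12 it was 1.21 and 0.66. None of the 13 summits lay in a repeat that RefSeq masks, against 10% of all optimal summits.

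Motif letters were searched on both strands within 100 bp of each summit. For general promoter factors, the letters were GGGCGG for the GC box that SP and KLF factors bind, CCAAT for the trimeric factor NF-Y, CCGGAAGT for the large ETS family, GCGCATGC for the nuclear respiratory factor NRF1, and AAGATGGC for the zinc finger protein YY1. For factors that answer to signals, they were TGANTCA for AP-1 dimers of FOS and JUN proteins, TGACGTCA for the cyclic AMP response element (CRE), GGAATG for the TEAD partners of YAP, and CACGTG for the E-box of MYC and related proteins. For factors of gut and epithelial tissue, they were GGGNGTG for other KLF sites, AACCNGTT for the grainyhead-like (GRHL) proteins, TGTTTAC for the forkhead (FOX) proteins, and AGATAA for the GATA proteins. The letters of the GC box and of KLF can overlap in 1 stretch. A match describes these letters and is no evidence that the factor binds.

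GC boxes and AP-1 letters were each at few of the 13 summits and never at the same one, which says little at such counts. The Ep300 summit near the start had 2 GC boxes and 2 CCAAT matches, while the upstream Ep300 summit had none of the 13 motifs. The Cited2 promoter summit had 2 GC boxes and 1 KLF match, and the Med1 exon summit had the YY1 letters. The strongest Ncoa3 summit had 1 AP-1 and 2 CCAAT matches, and the stronger downstream Cited2 summit 1 AP-1 and 2 TEAD matches. These 2 were the only summits of the 13 with AP-1 letters, which 12.7% of all optimal summits hold. GC boxes were at 3 of the 13 summits (20.8% of all), CCAAT at 3 (23.0%), KLF letters at 4 (20.1%) and TEAD letters at 2 (14.2%), so these counts were near the shares of all summits. CRE, ETS, NRF1, E-box, GRHL, FOX and GATA letters were found at 0 of the 13, and at 0.724 to 8.11% of all summits.

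GC content of the gene start did not separate the genes with a promoter summit from the others. From 250 bp before to 50 bp after the annotated gene start, GC content was 84.7% for Ncoa1, 70.7% for Ncoa2, 67.0% for Crebbp and 68.3% for Ncoa3, against 67.7% for Ep300, 66.3% for Cited2 and 54.7% for Med1. Kat2a had 54.3% and Kat2b 39.3%, and the median of all genes was 55.0%. GC boxes were present at the starts of Ncoa1 (7), Crebbp (3), Ep300 (3), Ncoa2 (2) and Cited2 (2), and at 43.0% of all gene starts.

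Genes of the wider co-activator machinery were counted by the same rule. In 6 lists with 126 genes, 73 had a summit in the body or within 50 kb (57.9%) and 31 had one within 1 kb of a start (24.6%), beside 36.7 and 11.1% of all genes. The count was 6 of 9 for other lysine acetyltransferases, 20 of 32 for other Mediator subunits and 14 of 23 for SAGA and ATAC subunits. It was 11 of 19 for other nuclear receptor co-activators, 10 of 24 for CITED relatives and other EP300-binding factors, and 12 of 19 for co-repressors and deacetylases. The co-repressors, which oppose the co-activators, thus had a share (63.2%) within the range of the other lists (41.7 to 66.7%). Promoter summits were at 4 of 9, 8 of 32, 8 of 23, 4 of 19, 3 of 24 and 4 of 19 genes, in the same order. The lists were not tested, and nothing particular to them is read from these shares.

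Part of these counts belongs to neighbours. Counting only summits nearest to the gene's own start, 47 of the 126 genes had one, with shares from 30.4 to 47.4% by list, beside 17.6% of all genes. Med29 had 9 summits and Med25 had 8 in their windows, but none was nearest to either gene, and the strongest were at Plekhg2 (62.4) and Ap2a1 (64.8). The strongest summit of Med22 (178, with 98.3 and 81.7 in replicates 1 and 2) stood 91 bp from its start and nearer still to that of Rpl7a, which encodes a ribosomal protein. Med19 had 3 summits, none nearest to its start (strongest 64.4). In the list of Mediator subunits, 12 of 32 genes had a summit of their own.

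Among the acetyltransferases, Kat6b had 4 summits, all nearest to its start, the strongest 40971 bp into the gene (41.0, with 10.6 and 23.3 in replicates 1 and 2). Kat7, the catalytic subunit of HBO1 complexes, had 2 at its promoter (strongest 49.7, with 40.3 in replicate 1 and no summit of replicate 2). Kat8 and Kat5 had 3 each, of which 1 and 0 were nearest to their own start. Of the SAGA and ATAC subunits, Taf12 had 3 own summits (strongest 65.8, with 46.8 and 20.4) and Supt20 had 3 (35.3, with 16.9 and 22.6). Taf6l had 7 and Supt7l had 2, with their strongest peaks nearest to Tmem179b (38.1) and Slc4a1ap (33.2).

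Of the other nuclear receptor co-activators, Ncoa4, which also acts as a receptor for ferritin turnover, had 3 own summits with the strongest 13 bp from its start (144, with 76.2 and 75.9). Ascc1 had 5 summits, Pprc1 had 4 and Jmjd1c had 4, and their strongest peaks were nearest to Ddit4 (89.4), Ldb1 (45.8) and Reep3 (44.4). Stat3, a cytokine-activated factor that binds EP300, had 6 summits, 2 of them its own, with the strongest 197 bp from the start (74.6, with 32.7 and 36.4). Ctnnb1, beta-catenin, had 3 own summits (strongest 50.1, 10017 bp upstream). Maml1 had 3 and Trp53 had 2, with the strongest nearest to Canx (54.7) and Wrap53 (53.4).

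Among the co-repressors and deacetylases, Hdac5, a class II deacetylase, had 7 summits, of which 6 were its own (strongest 40.0). Gps2 had 5 and Hdac3 had 4, none of them nearest to their own start, with the strongest at Kctd11 (70.0) and Diaph1 (54.7).

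**Figure D3:**
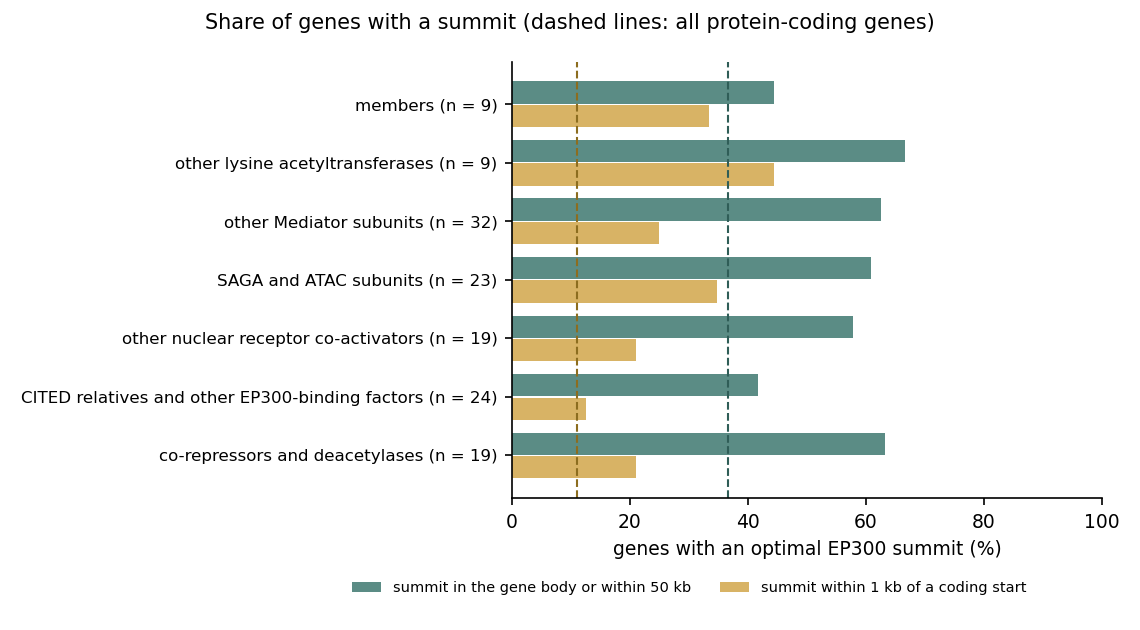
Share of genes (x axis, percent) with an optimal EP300 summit in the body or within 50 kb (green) and within 1 kb of a coding start (yellow), for the 9 members and 6 wider lists with the number of genes in each. Dashed lines mark all protein-coding genes (36.7 and 11.1%); in each list the green bar ends beyond the first line.

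For 12 genes picked for stomach smooth muscle, squamous forestomach and glandular epithelium, 12 of 12 had a summit by the same rule. The share of all protein-coding genes was 36.7%. Among the 12 were Acta2 with 4 summits and Krt13 with 6, while Gkn1 and Gkn2 each had 1, of the same signal (34.2). Windows of neighbouring genes can hold the same summit, so the 12 may not be separate cases. Whether these summits were nearest to the genes' own starts was not counted. Genes picked in this way cannot test the tissue label, and the count is a description. Without read counts in the lists, sequencing depth is unknown and intervals for counting error cannot be had. Peak lists of replicate 1, replicate 2 and the pooled reads each end at 300000 peaks.

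The set of genes with a summit was the same in most settings. Ep300, Med1, Ncoa3 and Cited2 each kept at least 1 summit with the conservative list, with the 3869 strongest optimal peaks, with the strongest peaks of either replicate alone, with the strongest pooled peaks, and with windows of 10 and 100 kb. In the strongest peaks of replicate 1 alone, Kat2a gained the peak at Rab5c, which made 5 genes, beside 40.7% of all genes. Within 100 kb, Kat2a gained 2 summits, at Dnajc7 and Nkiras2, and Kat2b 1 at Rab5a, which made 6, beside 49.9% of all genes. That window also gave Ep300 a pair of summits 62031 and 73325 bp upstream (45.3 and 46.9), both stronger than its promoter peak and both nearer to Rbx1. Crebbp, Ncoa1 and Ncoa2 had 0 summits in each setting run.

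**Figure D4:**
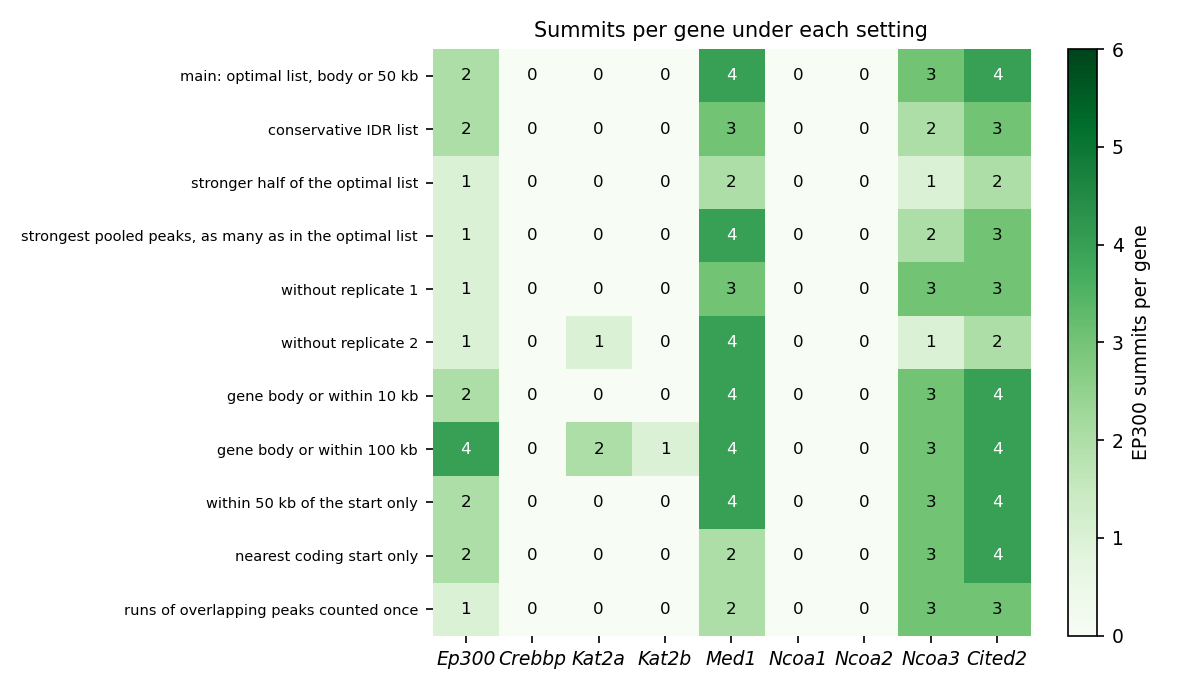
Number of EP300 summits (colour and digit) for each of the 9 genes (x axis) under the rule used here and 10 other settings (y axis). Crebbp, Ncoa1 and Ncoa2 are at 0 throughout, and Ep300, Med1, Ncoa3 and Cited2 at 1 or more.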

How the data were processed

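EP300 chromatin immunoprecipitation was sequenced in 2 libraries of 1 group. The authors deposited 5 narrowPeak lists on mm10: 1 per library, 1 for both libraries pooled, and an optimal and a conservative IDR set. Per the readme texts deposited with the lists, the IDR sets derive from the pooled list, both library lists and a further file. For the lists used here, the caller and aligner are not given in the sources. Signal, as deposited by the authors, is column 7. The IDR lists carry the pooled values and the library lists differ in scale, so libraries were compared by value and rank, with no test. The deposited score columns, which hold an IDR score (maximum 1000) and a q value kept as a score, gave no printed result. The deposited summit offset counts from 0 and was added to the peak start. Coordinates are 1-based.

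Genes and transcripts came from GENCODE M21 and sequence from RefSeq GRCm38, whose chromosomes contain every listed peak on the named chromosomes. Of the 7737 optimal peaks, 7733 lay on named chromosomes. Distances from a gene to the summits in its own window run from the start of the gene record. Promoter summits, nearest coding starts and the distances to Cdk12 and Rab5c were taken from starts of coding transcripts. A library supports a peak when its summit lies inside the interval. The counting and motif scripts (Python 3.11.15, pandas 2.3.3) were tested on simulated data. Settings tried were other peak sets, single replicates, windows of 10 and 100 kb, promoter distances of 500 bp and 2 kb, nearest starts only, runs of overlapping peaks, 1 start per gene, and narrow peaks left out. Genes were named by rule: the 9 genes, up to 4 genes of each wider list with the most summits, and the coding gene nearest to each summit of the 9. Other neighbours (such as Trap1, Rab5c and the genes nearest to the strongest peaks of the wider lists) were named after their values were seen. For 1 gene under this rule, no values are reported here. The genes and lists were chosen with earlier results of these data known, and no set test was run.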

Additional observations from a re-analysis of the deposited data

How the results depend on the processing

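The count of genes with a summit was 4 in 8 of 10 settings, and ranged from 4 to 5 over the replicates taken alone and up to 6 within 100 kb. The share of all genes moved with the setting, from 17.6% with nearest starts alone and 20.1% within 10 kb to 36.7% by the rule used here and 49.9% within 100 kb, so 4 of 9 stands against a different background in each. The count of distinct summits was 13. It fell to 6 in the 3869 strongest optimal peaks, was 9 to 10 with each replicate left out in turn, and rose to 18 within 100 kb. Of the 126 genes of the wider lists, 73 had a summit. This count was 47 with nearest starts alone, and 55 both within 10 kb and in the 3869 strongest optimal peaks. It was 77 to 82 with each replicate left out, and 82 within 100 kb. The count of promoter genes was 3, and 2 within 500 bp, where Cited2 dropped out. The median signal was 29.6 for the 13 peaks. It moved between 26.8 and 31.9 over settings that changed which peaks were counted. Per gene, Ep300 kept its count of 2 within 1.5 times in 4 of 10 settings; it had 1 summit with either replicate left out. Without replicate 2, Kat2a went from 0 to 1, Ncoa3 from 3 to 1 and Cited2 from 4 to 2. No paired analysis was possible because the series has 1 group. Depth is unknown, so what it limits cannot be stated; a gene without an optimal summit may still carry EP300 below the threshold.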

Other observations

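The sequence of the strongest peak in the Med1 window, at the Cdk12 promoter, holds the palindrome TCGCGA 2 times, and the Med1 promoter summit holds it 1 time. These letters were chosen after the sequences were read. They were present within 100 bp of 332 of 7733 optimal summits (4.29%). Among the 157 peaks narrower than the full width of 560 bp they were at 110 (70.1%), and among full-width peaks at 222 of 7576 (2.93%). Within 1 kb of a coding start the shares were 79.6% of 137 narrow and 7.50% of 2815 full-width peaks. Windows centred 1 kb to the left and to the right of the narrow summits held them in 1 and 0 of 157 cases. None of the summits of Ep300, Ncoa3 and Cited2 held the palindrome. The relation of width and letters was not tested further.

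The optimal list reaches far down the pooled list. Of its peaks, 1066 (13.8%) had a pooled rank beyond 20000, and 420 pooled peaks stronger than the median optimal peak were not in it. At Ep300 the peak nearest to the start is such a case, at rank 38322, and at Cited2 the exonic peak, at rank 77560. Conversely, the conservative list gave Cited2 a weak peak 469 bp upstream (8.50) that the optimal list lacks.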
